A study of Homo sapiens with 12 samples.

Results

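The genes described here are 37 members of the unfolded protein response and the integrated stress response, taken by symbol from a list. All 37 were among the 35984 genes of the count table, and 35 of them were among the 16118 genes with enough counts to test. They fall into 25 genes of the endoplasmic reticulum (ER) and its stress sensors, all tested, and 12 genes of the ATF4 arm, of which 10 were tested. RNA was sequenced from HepG2, an established human hepatoma cell line, in 4 groups of 3 libraries. Control cells (CTL) stably carried control shRNAs, and knock-down cells (DKD) carried shRNAs against the transcripts of macroH2A1 and macroH2A2, 2 histone variants that take the place of H2A and carry an extra macro domain. Both lines had been transduced with retroviral vectors (pRetroSUPER) and were kept overnight in 0.5% serum. For 24 hours each line then received either the vehicle alone (untreated) or 20 ng/mL of TNFα, a cytokine of inflammation. The labels do not say whether a line was 1 clone or a pool of transduced cells, so an effect of the knock-down cannot be told apart from another difference between the lines. Whether the 3 libraries of a group stem from 3 cultures is not said either, so p-values here reflect the spread among libraries, and that spread may be technical.

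When unfolded proteins gather in the ER, the membrane proteins ATF6, IRE1 (gene ERN1) and PERK (gene EIF2AK3) start the unfolded protein response. ATF6 is cut to release a transcription factor, IRE1 splices the XBP1 transcript, and both factors raise chaperones, folding enzymes and the machinery that extracts misfolded proteins for degradation (ERAD). PERK phosphorylates the initiation factor eIF2α, as other kinases do in amino acid shortage or viral infection. General translation then falls while the transcription factor ATF4 is translated and raises genes of amino acid supply, of recovery and of cell death. Liver cells secrete plasma proteins in bulk and depend on these folding enzymes. XBP1 splicing, eIF2α phosphorylation and the ATF6 and ATF4 proteins are not visible in counts per gene.

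Libraries held 30955080 to 42094144 estimated counts. Levels are given in CPM, counts scaled to one common library size with TMM factors, and are not corrected for transcript length, so they are compared between libraries and not between genes. Against control cells, the knock-down left 19.5% of MACROH2A1 and 8.83% of MACROH2A2 transcripts without TNFα, and 20.7% and 8.55% with it. All 9 hepatocyte markers looked at, ALB, APOB and HNF4A among them, were at 21.6 CPM or more in every library. Markers of leukocytes, endothelium and fibroblasts stayed under 1 CPM in every library, apart from CD68 (4.50 to 14.4 CPM) and PECAM1 (1.28 to 2.43 CPM), and CD3E had no count. The knock-down libraries numbered 1 stood apart from the others. On the first principal component of all tested genes, with 33.1% of the variance, they lay at -83.7 untreated and -53.9 with TNFα, and the other 10 between -18.2 and 41.5. Mitochondrially encoded genes took 10.3% of the counts in the untreated library of this pair and 8.97% in the one with TNFα. In the remaining libraries they took 7.59% to 8.94%. Libraries with the same number deviated together from their group means, so tests are also given with the replicate number as a block where it changes a call.

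Short promoter sequences are shown first because several of these genes carry an ER stress response element, the sequence through which ATF6 and XBP1 are known to act. RefSeq start sites on GRCh38.p14 were found for 35 of the 37 genes, all but PDIA3 and NUPR1, and the 250 bases before each start were searched on both strands. The element ERSE, which is CCAAT, 9 free bases and CCACG, was found in 8 of these 35 genes and in 0.0916% of all 27305 genes with a promoter. The shorter ERSE-II, which is ATTGG, 1 free base and CCACG, was found in 3 of the 35 and in 0.0659% of all genes with a promoter. The element UPRE, TGACGTGG, was found in HYOU1 alone among the 35, overlapping its first ERSE-II, and in 0.78% of all genes with a promoter. A match describes the letters and not a bound site. The 5 upstream sequences that follow were picked from genes with an ERSE or ERSE-II match, so they do not show how often an element goes with a change. Exonic bases are left out, and ERSE, ERSE-II and UPRE matches are in capitals. The 5 genes are HSPA5 (chr9:125241344-125241593, minus strand), CALR (chr19:12938359-12938577, plus strand), XBP1 (chr22:28800598-28800819, minus strand), HYOU1 (chr11:119057206-119057455, minus strand) and HERPUD1 (chr16:56931892-56932047, plus strand). Each is written 5′ to 3′ on the strand of its gene. In CALR and HYOU1 the ERSE and ERSE-II matches read on the opposite strand, so their letters appear reversed and complemented.
HSPA5: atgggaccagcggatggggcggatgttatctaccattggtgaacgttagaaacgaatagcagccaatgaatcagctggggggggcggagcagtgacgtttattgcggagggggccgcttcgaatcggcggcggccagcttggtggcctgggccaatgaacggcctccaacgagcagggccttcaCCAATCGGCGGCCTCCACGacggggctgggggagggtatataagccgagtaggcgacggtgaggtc
CALR: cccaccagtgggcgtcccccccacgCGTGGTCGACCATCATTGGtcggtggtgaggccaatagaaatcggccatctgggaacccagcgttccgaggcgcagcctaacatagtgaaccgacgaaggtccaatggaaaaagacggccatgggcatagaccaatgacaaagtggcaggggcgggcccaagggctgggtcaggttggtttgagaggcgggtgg
XBP1: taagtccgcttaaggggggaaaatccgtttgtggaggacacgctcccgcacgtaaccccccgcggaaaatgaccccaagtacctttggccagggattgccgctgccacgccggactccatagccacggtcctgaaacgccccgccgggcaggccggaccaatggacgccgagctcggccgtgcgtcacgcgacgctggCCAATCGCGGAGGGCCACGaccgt
HYOU1: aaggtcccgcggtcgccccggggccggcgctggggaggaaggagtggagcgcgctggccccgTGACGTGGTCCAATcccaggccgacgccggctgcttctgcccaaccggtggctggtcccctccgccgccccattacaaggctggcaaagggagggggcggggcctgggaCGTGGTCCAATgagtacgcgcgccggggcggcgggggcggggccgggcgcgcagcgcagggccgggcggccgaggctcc
HERPUD1: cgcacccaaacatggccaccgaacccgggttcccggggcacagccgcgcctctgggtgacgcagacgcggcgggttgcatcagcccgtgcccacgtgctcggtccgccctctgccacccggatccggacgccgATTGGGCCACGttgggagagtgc

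The other matches are written along the element, with its fixed letters in capitals and its free letters in lower case. They let the spacers be compared, which differ from gene to gene. The fixed ends are the same because the search required them.
HSP90B1 (-194 to -176): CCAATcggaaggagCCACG
HSP90B1 (-89 to -71): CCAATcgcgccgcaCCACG
CANX: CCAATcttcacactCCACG
CRELD2: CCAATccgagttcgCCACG
PDIA6: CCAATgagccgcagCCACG
ERO1B: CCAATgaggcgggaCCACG
SDF2L1 (ERSE-II): ATTGGtCCACG

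Among ER chaperones, HYOU1 and DNAJB11 were lower in knock-down cells, while the central chaperone gene HSPA5 and most others did not pass the test. A gene was called when its adjusted p was under 0.05 (edgeR's quasi-likelihood test, Benjamini-Hochberg over 16118 genes). Where no other setting is named, values and calls come from the standard analysis, with all 12 libraries, TMM factors and no block, and "without the block" refers to it. Averaged over both treatments, 2 of 11 chaperone genes were called lower and 0 higher, with a median log2 fold change of -0.16 against 0.01 over all tested genes. Over all 35 members the count was 2 higher and 3 lower. In this comparison 14.5% of all tested genes were called (8.49% higher and 6.04% lower). With the replicate block, 7 members were called higher and 8 lower, against 31.2% of all genes (15.8% higher and 15.4% lower). The calls thus came to 5 of 35 members without the block, near the share of all genes, and to 15 of 35 with it. In bulk RNA, fewer cells with a transcript and less of it per cell cannot be told apart.

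HYOU1 encodes ORP150, a large ER chaperone that acts as a nucleotide exchange factor for BiP (chr11:119044189-119057202, minus strand, GENCODE 29 on GRCh38). Without TNFα it was at 338, 312 and 305 CPM in the 3 control libraries and 255, 265 and 271 CPM in the 3 knock-down libraries. Under TNFα the values were 323, 303 and 322 CPM in control and 253, 247 and 264 CPM in knock-down cells. All 6 knock-down libraries lay below all 6 control libraries, and the groups did not overlap. The log2 fold change was -0.27 (SE 0.06, adjusted p = 0.0326) untreated, -0.31 (SE 0.06, adjusted p = 0.0144) with TNFα and -0.29 (SE 0.05, adjusted p = 0.00130) averaged. The averaged call held in all alternatives run. The untreated call was lost when any of the 6 untreated libraries or CTL TNFα replicate 3 was left out (adjusted p = 0.0522 to 0.122), without a low-count filter (0.0993) and with only the 2 groups fitted (0.165). It was also lost without both knock-down libraries numbered 1 (0.0563) and from replicates 2 and 3 alone (-0.20, adjusted p = 0.0835). The call with TNFα was lost without CTL TNFα replicate 1 or 3 or DKD TNFα replicate 1 or 2 (0.0507 to 0.0659).

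DNAJB11 encodes ERdj3, an ER co-chaperone that hands unfolded proteins to BiP (chr3:186567403-186585800, plus strand). Treated with TNFα, it was at 135, 156 and 137 CPM in control cells and 94.2, 102 and 99.8 CPM in knock-down cells. Untreated it was at 124, 116 and 109 CPM in control and 99.5, 95.4 and 102 CPM in knock-down cells. The lines did not overlap in either condition, and the gap was wider with TNFα. The log2 fold change between the lines was -0.53 with TNFα (SE 0.08, adjusted p = 0.00272), -0.23 untreated (SE 0.08, adjusted p = 0.159) and -0.38 averaged (adjusted p = 0.00113). The calls with TNFα and on average held in all alternatives run. Exons of DNAJB11 overlap those of TBCCD1 on the other strand, and the strand setting of the counting is not given in the sources used here, so reads from the overlap could go to either gene.

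HSPA5 encodes BiP, the ER member of the HSP70 family and the chaperone that holds the 3 sensors inactive (chr9:125234853-125241330, minus strand). It was at 1404, 1099.8 and 1196 CPM in untreated control cells and 1018, 1026 and 1209.9 CPM in untreated knock-down cells. With TNFα the values were 1146, 974 and 1084 CPM in control and 946, 899.9 and 1042 CPM in knock-down cells. The lines overlapped in both conditions, and the averaged log2 fold change between them was -0.17 (95% interval -0.34 to 0.00, adjusted p = 0.182; 0.0514 with the block). HSP90B1, which encodes the ER chaperone GRP94, differed by -0.01 (95% interval -0.10 to 0.08), so a difference beyond 0.10 on the log2 scale in either direction lies outside its interval.

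CALR encodes calreticulin and CANX calnexin, the lectin chaperones that bind glycoproteins during folding. CALR (chr19:12938578-12944489, plus strand) was at 954, 1028 and 1107 CPM in untreated control cells and 612, 849 and 916 CPM in untreated knock-down cells. After TNFα it stood at 1029, 1038 and 1128 CPM in control and 779, 887 and 1023 CPM in knock-down cells. In both conditions the 3 knock-down libraries lay below the 3 control libraries, and DKD untreated replicate 1 was the lowest of all. The averaged log2 fold change was -0.31 (SE 0.10, adjusted p = 0.0610), and CALR was called with the replicate block (-0.32, adjusted p = 0.00209) and from replicates 2 and 3 alone (-0.22, adjusted p = 0.0315). It was also called with DESeq2 (adjusted p = 0.0378) and without DKD untreated (0.0364) or DKD TNFα replicate 3 (0.0460). Without both knock-down libraries numbered 1 it differed by -0.19 (adjusted p = 0.0566). CANX differed by -0.16 (adjusted p = 0.309) and was lower in 3 of 3 pairs of equal number in each condition. It too was called with the block (adjusted p = 0.00671), and without both knock-down libraries numbered 1, at -0.29 (adjusted p = 0.0149).

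The remaining chaperone genes were not called between the lines without the block. DNAJC3, which encodes p58IPK, an ER co-chaperone and inhibitor of PERK, differed by -0.16 averaged and was called lower with the block (adjusted p = 0.0318), but at -0.09 in the standard analysis without CTL untreated replicate 1. DNAJB9, which encodes the BiP co-chaperone ERdj4, differed by 0.24 and was called higher with the block (adjusted p = 0.0320). Its exons overlap PNPLA8 and THAP5 on the other strand. SDF2L1 (-0.09), CRELD2 (0.01) and MANF (-0.18), small secreted or ER-resident stress proteins, were called in no comparison with or without the block. Their averaged intervals were -0.44 to 0.25, -0.28 to 0.30 and -0.40 to 0.04, wider than that of HSP90B1. Exons of CRELD2 overlap ALG12 on the other strand.

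**Figure D1:**
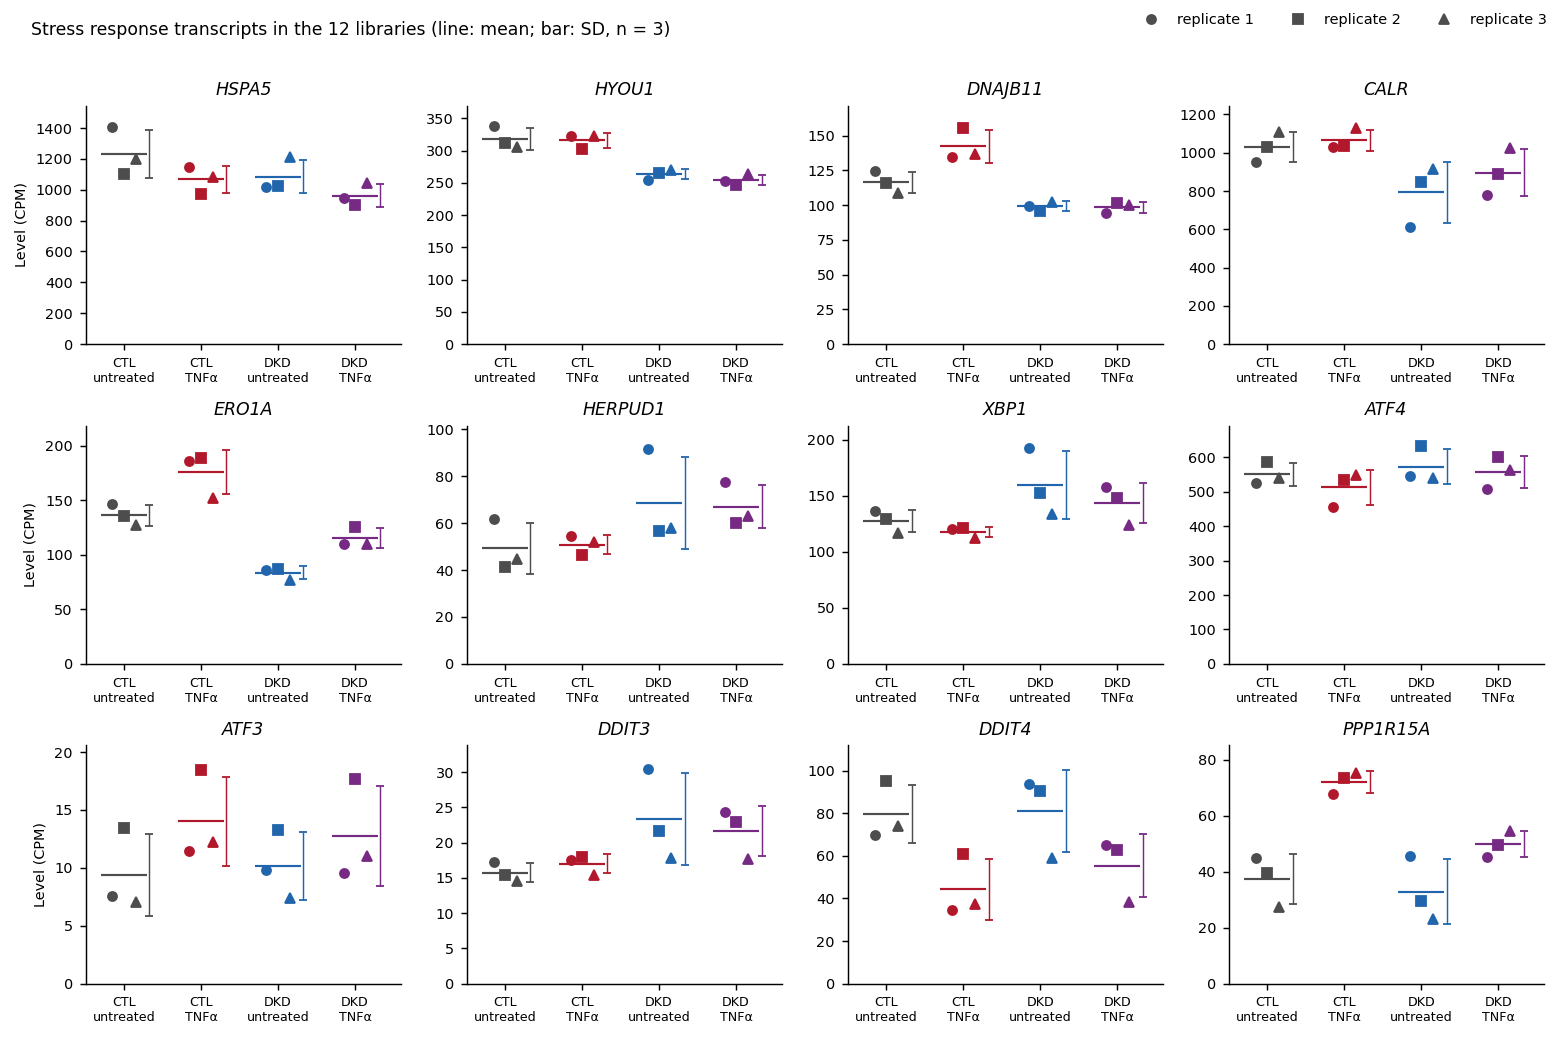
Levels of 12 stress response transcripts in CPM (vertical axes, each from 0) in the 4 groups; points are libraries, with the shape giving the replicate number, lines are means and bars SD (n = 3). ERO1A and HYOU1 lie lower in all 6 knock-down libraries than in the control libraries of the same treatment, PPP1R15A is at 67.6 CPM or more in the 3 CTL TNFα libraries, and ATF4 overlaps in all groups.

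Of the 5 oxidative folding genes, ERO1A alone was called in any comparison, with or without the block. ERO1A encodes the oxidase that recharges protein disulfide isomerases in the ER (chr14:52639916-52695900, minus strand). Untreated, it was at 146, 135 and 128 CPM in control cells and 86.6, 87.2 and 76.7 CPM in knock-down cells. With TNFα it was at 186, 189 and 152 CPM in control and 110.03, 126 and 109.7 CPM in knock-down cells. The 4 groups did not overlap: untreated knock-down cells were lowest, then knock-down cells with TNFα, untreated control cells and control cells with TNFα. ERO1A fell by 0.71 on the log2 scale in untreated knock-down cells (SE 0.10, adjusted p = 0.00254) and by 0.61 with TNFα (SE 0.10, adjusted p = 0.00487). The averaged change was -0.66 (adjusted p = 1.58e-04). These calls held in all alternatives run.

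The disulfide isomerase genes did not share this difference between the lines. PDIA3, whose product acts on glycoproteins with calreticulin and calnexin, differed by -0.06 averaged (95% interval -0.18 to 0.06). PDIA4 differed by 0.09 (-0.05 to 0.23) and PDIA6 by -0.07 (-0.20 to 0.05). ERO1B, the paralogue of ERO1A, was at only 5.06 to 10.4 CPM over the 12 libraries and differed by 0.20 (-0.26 to 0.67). In each group its library numbered 1 was the highest, by 0.48 to 0.76 on the log2 scale over the mean of the other two libraries. Reads of PDIA3 may be shared with its pseudogene PDIA3P1, which held 3721 counts against 328091 for PDIA3.

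In ER degradation and translocation, HERPUD1 and SEC61B were not called in the standard analysis and were called higher in knock-down cells with the replicate block. HERPUD1 encodes a membrane protein of the ERAD complex (chr16:56932048-56944863, plus strand). It was at 61.9, 41.2 and 44.7 CPM in untreated control cells and 91.5, 56.8 and 57.8 CPM in untreated knock-down cells. Under TNFα the values were 54.4, 46.4 and 51.9 CPM in control and 77.4, 60.3 and 63.1 CPM in knock-down cells. The library numbered 1 was the highest in each group, most in untreated knock-down cells, and the lines overlapped untreated but not with TNFα. The averaged log2 fold change was 0.44 (SE 0.14, adjusted p = 0.0682), 0.43 with the block (adjusted p = 0.00112) and 0.37 from replicates 2 and 3 alone (adjusted p = 0.00214). It was also called with DESeq2 (adjusted p = 0.0315) and without CTL untreated replicate 1 (edgeR, adjusted p = 0.0319). Without both knock-down libraries numbered 1 the value was 0.25 (adjusted p = 0.137). In the block analysis HERPUD1 was thus called higher and HYOU1 lower in knock-down cells, and both promoters printed above carry ERSE-II.

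SEC61B, a subunit of the channel through which new proteins enter the ER, differed by 0.19 (adjusted p = 0.0842, 0.0174 with the block). SEL1L, the scaffold of the ERAD ubiquitin ligase, differed by -0.14 and was called lower with the block (adjusted p = 0.0159). In the standard analysis it ran from -0.08 without CTL untreated replicate 1 to -0.29 without both knock-down libraries numbered 1. SYVN1, the ligase itself, differed by 0.17 (adjusted p = 0.373, 0.0551 with the block), and part of its exons overlaps FAU and MRPL49. EDEM1, which extracts glycoproteins from the folding cycle, differed by 0.04 (95% interval -0.15 to 0.24). The 5 genes of this group therefore did not move in a common direction.

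Among the sensors and XBP1, no gene was called between the lines in the standard analysis, while XBP1 and ATF6 were called with the block and in some other settings. XBP1, whose spliced form encodes a transcription factor of the response (chr22:28794555-28800597, minus strand), was at 136, 129.7 and 117 CPM in untreated control cells and 193, 152 and 134 CPM in untreated knock-down cells. Treated with TNFα, it was at 120.1, 121 and 113 CPM in control and 158, 148 and 124 CPM in knock-down cells. Knock-down libraries were higher in 3 of 3 pairs in each condition, with DKD untreated replicate 1 the highest. The averaged log2 fold change was 0.30 (SE 0.09, adjusted p = 0.0559), and 0.29 with the block (adjusted p = 0.00283). XBP1 was also called with upper-quartile factors (adjusted p = 0.0443), with DESeq2 (adjusted p = 0.0263) and without DKD untreated (0.0241) or DKD TNFα replicate 3 (0.0341). Without both knock-down libraries numbered 1 the value was 0.19 (adjusted p = 0.0933). Counts per gene hold spliced and unspliced XBP1 together.

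ATF6, the sensor that becomes a transcription factor, ran from 24.7 CPM in DKD untreated replicate 1 to 63.6 CPM in CTL TNFα replicate 3. Its averaged difference between the lines was -0.33 (SE 0.17, adjusted p = 0.258), and it was called lower with the block (adjusted p = 0.00823) and from replicates 2 and 3 alone (-0.24, adjusted p = 0.00789). The value was -0.20 without DKD untreated replicate 1 (adjusted p = 0.346) and -0.12 without both knock-down libraries numbered 1 (adjusted p = 0.440). ERN1 and EIF2AK3 differed by -0.08 (95% interval -0.37 to 0.21) and 0.09 (-0.05 to 0.22). ATF6 and XBP1 thus lay on opposite sides of 0 in the block analysis.

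**Figure D2:**
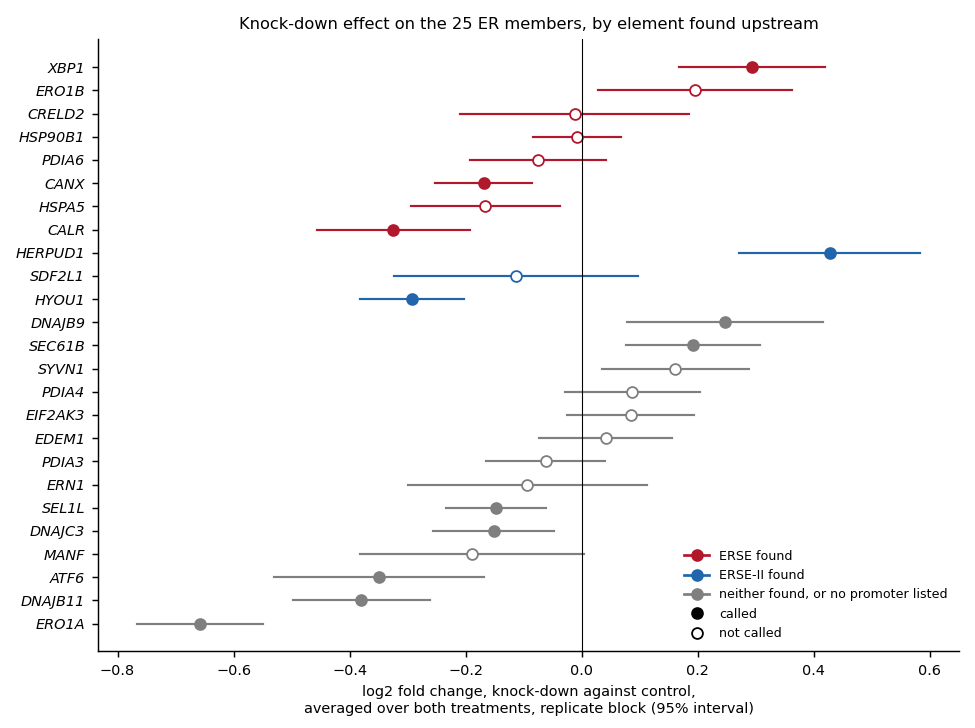
Averaged log2 fold change of the 25 ER genes in knock-down against control cells with the replicate block (horizontal axis; bars are 95% intervals), coloured by the element found in the 250 bases before the start. Genes with ERSE range from -0.32 (CALR) to 0.29 (XBP1), and the 3 with ERSE-II include both HYOU1 (-0.29) and HERPUD1 (0.43).

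Sorted by element, the averaged block values did not share a direction. Of the 8 genes with ERSE, CALR and CANX were called lower, XBP1 was called higher and HSPA5, HSP90B1, PDIA6, CRELD2 and ERO1B were not called. Of the 3 with ERSE-II, HYOU1 was called lower, HERPUD1 higher and SDF2L1 was not called. ERO1A and DNAJB11, with the largest falls among chaperone and oxidative folding genes, held neither element in the window searched.

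In the ATF4 arm, ATF4 itself was called in no comparison, while DDIT3 and NUPR1 were called higher in knock-down cells on average. ATF4 (chr22:39519695-39522685, plus strand) was at 525, 587 and 539.7 CPM in untreated control cells and 456, 534 and 549.8 CPM with TNFα. In knock-down cells it was at 546, 632 and 541 CPM untreated and 508, 599.9 and 564 CPM with TNFα. All 4 groups overlapped. The averaged log2 fold change was 0.09 between the lines (95% interval -0.06 to 0.24) and -0.07 for TNFα (-0.22 to 0.08), with no call with or without the block. ATF4 is mainly controlled through its translation, which was not measured.

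Over the 10 tested genes of the arm, 2 were called higher in knock-down cells and 0 lower, against 8.49% of all genes called higher and 6.04% lower. The median log2 fold change was 0.12 against -0.07 over the 25 ER genes and 0.01 over all genes. DDIT3 encodes CHOP, a transcription factor that promotes cell death under lasting stress (chr12:57516588-57521737, minus strand). Untreated, it was at 17.2, 15.4 and 14.5 CPM in control and 30.5, 21.7 and 17.9 CPM in knock-down cells. After TNFα it stood at 17.6, 18.0 and 15.4 CPM in control and 24.3, 23.0 and 17.7 CPM in knock-down cells. The lines did not overlap untreated and did with TNFα, and DKD untreated replicate 1 stood highest. DDIT3 rose by 0.46 averaged (SE 0.13, adjusted p = 0.0420), and by 0.57 untreated, called only with the block (adjusted p = 0.135, 0.00934 with the block). Without both knock-down libraries numbered 1 the averaged value was 0.30 (adjusted p = 0.0644), more than 1.5 times smaller. It also lost the call without any 1 of 9 libraries, which are all 6 control libraries, DKD untreated replicate 2 and DKD TNFα replicates 1 and 2 (0.0567 to 0.102). Exons of DDIT3 overlap MBD6 and MARS on the other strand.

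NUPR1, a small stress-induced nuclear protein, was low throughout, at 1.59 to 3.31 CPM (chr16:28532708-28539174, minus strand). It was at 2.14, 2.63 and 1.90 CPM in untreated control and 3.06, 3.31 and 2.57 CPM in untreated knock-down cells, and with TNFα at 1.76, 1.59 and 1.78 CPM in control and 2.75, 2.55 and 1.99 CPM in knock-down cells. The lines overlapped untreated and did not with TNFα. NUPR1 rose by 0.47 averaged (SE 0.14, adjusted p = 0.0426). The call was lost without any 1 of CTL untreated replicates 1 and 3, the 3 CTL TNFα libraries, DKD untreated replicates 1 and 2 and DKD TNFα replicates 1 and 2 (0.0563 to 0.111), without a low-count filter (0.0915), without both knock-down libraries numbered 1 (0.0787) and from replicates 2 and 3 alone (0.116).

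CEBPG, a C/EBP partner of ATF4, differed by 0.16 averaged (adjusted p = 0.134) and was called higher with the block (0.0330). SESN2, an inhibitor of mTORC1 signalling, differed by 0.30 (0.00 to 0.61), and TRIB3, a pseudokinase that feeds back on ATF4 and CHOP, by 0.02 (-0.21 to 0.25). ASNS, the asparagine synthetase gene, differed by -0.02 (-0.34 to 0.31). CHAC1, a glutathione-degrading enzyme, had at most 2 counts in any library, and the hormone gene FGF21 reached at most 0.243 CPM, so neither was tested and a difference was not detectable at this depth.

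The same windows were searched for the composite C/EBP-ATF element, TGATGNAA. It was found in 6 of the 35 genes with a start site and in 3.89% of all genes with a promoter. The genes were ASNS, ATF3, CEBPG, CHAC1, FGF21 and, in the ER group, HERPUD1. Their matches were TGATGaAA in ASNS, TGATGgAA in ATF3 and TGATGcAA in the other four genes. Of these 6 genes, CEBPG and HERPUD1 were called higher in knock-down cells with the block, CHAC1 and FGF21 were not tested, and ASNS and ATF3 were not called between the lines.

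**Figure D3:**
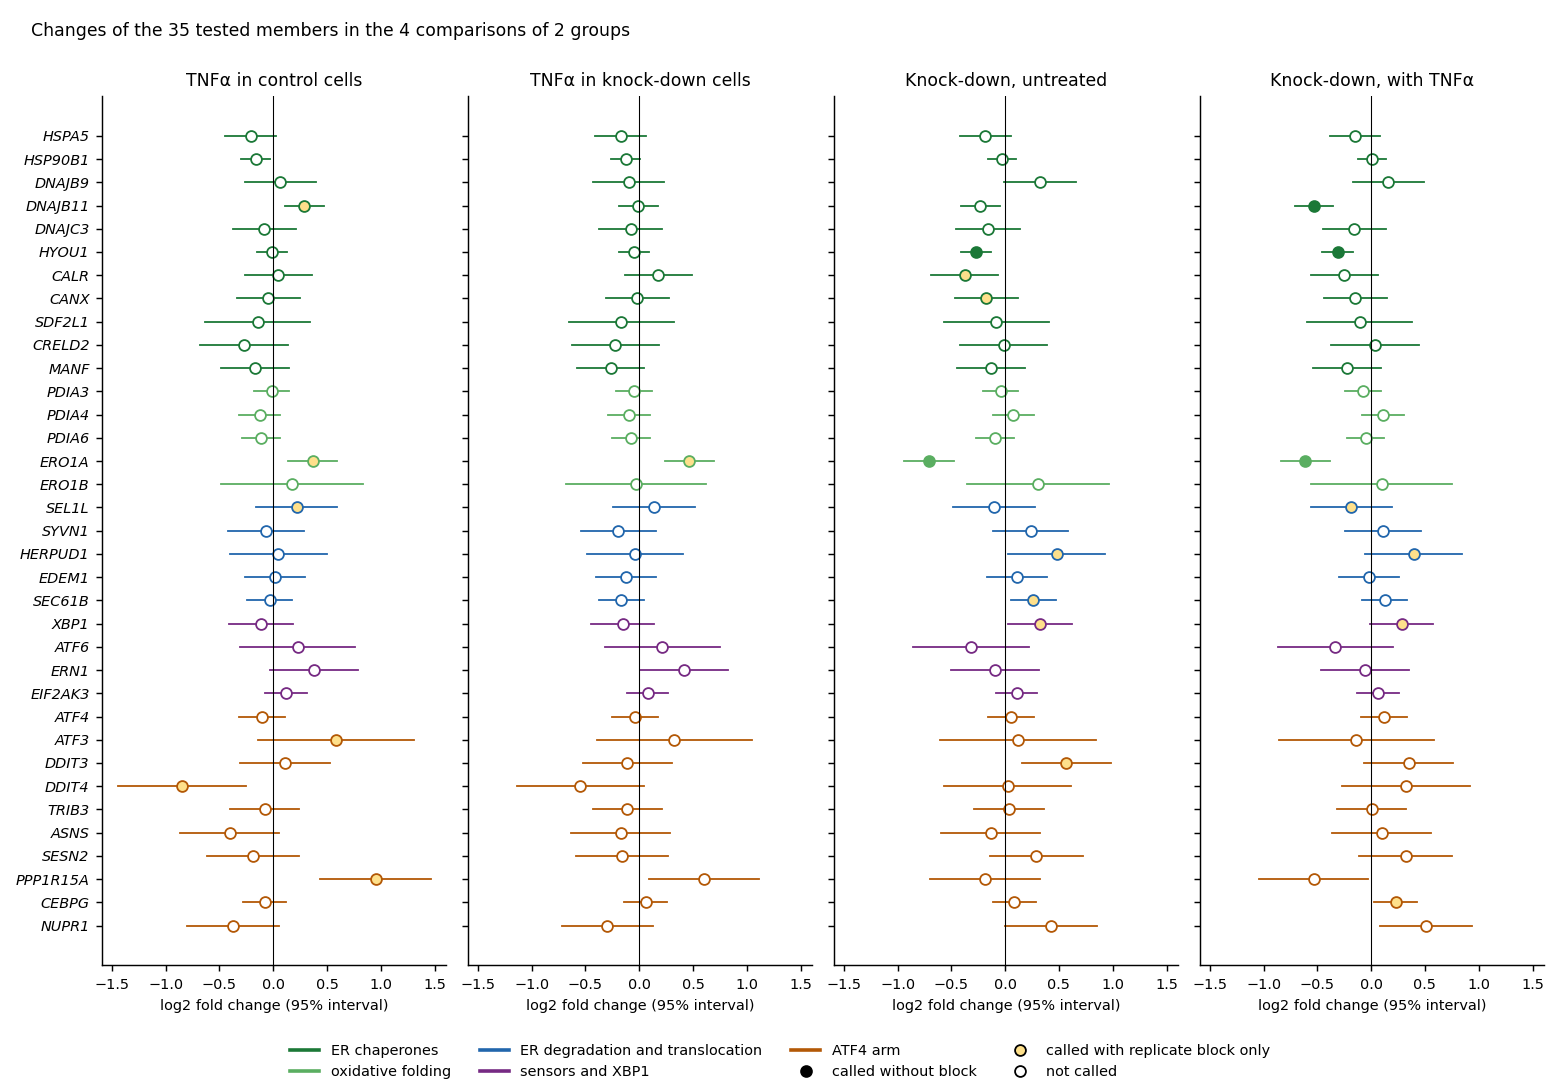
Log2 fold changes of the 35 tested genes (horizontal axes; bars are 95% intervals) for TNFα in each line and for the knock-down in each condition, without the block. Filled points are called, yellow points are called with the replicate block only and open points are not called; ERO1A is called lower in both knock-down panels, and no gene is called for TNFα in either line without the block.

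Without the block, TNFα calls were few among these genes, as they were over all tested genes. In control cells no member was called, while 1.9% of all tested genes were called higher and 0.726% lower. An unadjusted p under 0.05 (edgeR) was found for 5 of 35 members and for 2234 of all 16118 genes. With the block 5 members were called higher and 1 lower, against 7.94% higher and 4.7% lower of all genes. ERO1A, PPP1R15A, DNAJB11, SEL1L and ATF3 were the higher ones and DDIT4 the lower one. In knock-down cells no member was called against 1.54% higher and 0.254% lower of all genes. There 3 members and 1634 of all 16118 genes had an unadjusted p under 0.05 (edgeR). ERO1A was called higher with the block against 5.55% higher and 2.13% lower of all genes. DESeq2 called 4 members in control and 1 in knock-down cells, and the share of all genes was not taken for it. For the effect averaged over both lines, ERO1A and PPP1R15A were called higher and none lower, against 5.02% higher and 2.2% lower of all genes. With the block this became 5 higher and 3 lower, against 12.4% higher and 8.82% lower.

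PPP1R15A encodes GADD34, the phosphatase subunit that removes the phosphate from eIF2α and so ends the response (chr19:48872392-48876057, plus strand). In control cells it went from 44.8, 39.6 and 27.5 CPM untreated to 67.6, 73.4 and 75.3 CPM with TNFα. In knock-down cells it went from 45.7, 29.7 and 23.0 to 45.3, 49.5 and 54.5 CPM. The control groups did not overlap. In knock-down cells untreated replicate 1 was level with the lowest treated library, and untreated replicates 2 and 3 lay below all treated ones. PPP1R15A rose with TNFα by 0.78 averaged (SE 0.16, adjusted p = 0.0161), a call that held in all alternatives run. Within control cells the change was 0.95 (SE 0.23, adjusted p = 0.0615, 0.0132 with the block). It was called there without DKD untreated replicate 1 (0.0116) or 3 (0.0390), without both knock-down libraries numbered 1 (0.00805), with only the 2 groups fitted (0.0225), from replicates 2 and 3 alone (0.00479) and with DESeq2 (adjusted p = 0.00318). Within knock-down cells it was 0.60 (adjusted p = 0.365). With TNFα the knock-down libraries were all below the control libraries, by -0.53 (adjusted p = 0.245, 0.107 with the block).

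ERO1A rose with TNFα by 0.42 averaged (SE 0.07, adjusted p = 0.00589), also in all alternatives run. Within the lines the change was 0.37 in control (adjusted p = 0.103, 0.00729 with the block) and 0.46 in knock-down cells (adjusted p = 0.0523, 0.00250 with the block). DESeq2 called both (adjusted p = 0.0269 and 0.00251). It was higher in 3 of 3 pairs in each line. DNAJB11 was higher with TNFα in 3 of 3 pairs in control cells (0.29, adjusted p = 0.0996, 0.0313 with the block and 0.0175 with DESeq2) and in 1 of 3 in knock-down cells (-0.01). SEL1L differed by 0.18 averaged and was called with the block (0.00831), but was at 0.11 in the standard analysis without CTL untreated replicate 3 and likewise without CTL TNFα replicate 1, DKD untreated replicate 3 or DKD TNFα replicate 1. ERN1 was called with the block too, at 0.39 (adjusted p = 0.106, 0.0121 with the block). ERN1 was also called without DKD untreated replicate 1 (0.50, adjusted p = 0.00820) and with DESeq2 (adjusted p = 0.0479).

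No chaperone gene was called for TNFα on average in the standard analysis, and HSPA5 and HSP90B1 were called lower with the block. HSPA5 was lower with TNFα in 3 of 3 pairs in each line, by -0.19 averaged (adjusted p = 0.185, 0.0408 with the block). HSP90B1 was also lower in 3 of 3 pairs in each line, by -0.14 (adjusted p = 0.0678, 0.0133 with the block, and 0.00616 with DESeq2). CALR was higher in 3 of 3 pairs in each line, by 0.11 (adjusted p = 0.614, 0.193 with the block), and CANX differed by -0.03. The 11 chaperone genes had a median of -0.08, with 9 of 11 below 0, against a median of 0.00 over all genes. Of all 16118 tested genes, 8204 were below 0. The chaperone genes were measured in the same libraries, so the 9 are not separate observations.

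In the ATF4 arm, DDIT4 was called lower and ATF3 higher with TNFα with the block, and neither in the standard analysis. DDIT4 encodes REDD1, an inhibitor of mTORC1 (chr10:72273920-72276036, plus strand). In control cells it went from 69.8, 95.3 and 73.9 CPM to 34.7, 60.6 and 37.4 CPM, and in knock-down cells from 93.5, 90.4 and 58.9 to 65.2, 62.7 and 38.4 CPM. It was lower with TNFα in 3 of 3 pairs in each line, and the groups overlapped only in knock-down cells. The averaged log2 fold change was -0.70 (SE 0.19, adjusted p = 0.0517, 0.00252 with the block). It was called without CTL TNFα replicate 2 (0.0224), DKD untreated replicate 3 (0.0345) or DKD TNFα replicate 1 (0.0475) and without both knock-down libraries numbered 1 (0.0425). Other calls were made with RLE (0.0474) and upper-quartile factors (0.0486), no low-count filter (0.0439) and DESeq2 (adjusted p = 0.00537).

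ATF3, a stress-induced transcription factor (chr1:212565334-212620777, plus strand), was at 7.61, 13.4 and 7.08 CPM in untreated control cells and 11.4, 18.4 and 12.2 CPM with TNFα. In knock-down cells it was at 9.78, 13.3 and 7.41 CPM untreated and 9.54, 17.7 and 11.0 CPM with TNFα. Replicate 2 was the highest in every group, and the change was 0.46 averaged (SE 0.23, adjusted p = 0.316), or 0.46 with the block (SE 0.08, adjusted p = 0.00329). Without DKD TNFα replicate 2 the standard value was 0.28 (adjusted p = 0.608). The other ATF4-arm genes, ATF4, DDIT3, TRIB3, ASNS, SESN2, CEBPG and NUPR1, were called for TNFα in neither line and not on average, with or without the block.

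A different response to TNFα in the 2 lines was not called for any member. The interaction (log2 change with TNFα in DKD less the same change in CTL) was called for none of the 35 members and for 0.0% of all genes, with and without the block. A single member, DNAJB11, had an unadjusted p under 0.05, at -0.30 (SE 0.11, adjusted p = 1, edgeR). The interval for PPP1R15A was -1.07 to 0.37 around -0.35, and that for ERO1A -0.23 to 0.42 around 0.10, so interactions of these sizes were not detectable with 3 libraries a group.

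In each condition alone the calls between the lines were few without the block, among the members as over all genes. Untreated, 2 members were called lower (ERO1A and HYOU1) and none higher, against 3.13% higher and 1.86% lower of all genes. With the block the count was 4 higher and 4 lower, against 9.17% higher and 7.31% lower of all genes: HERPUD1, SEC61B, XBP1 and DDIT3 were higher and ERO1A, HYOU1, CALR and CANX lower. With TNFα 3 were called lower (ERO1A, HYOU1 and DNAJB11) and none higher, against 3.94% higher and 2.3% lower of all genes. With the block this count became 3 higher and 4 lower, against 10.6% higher and 8.79% lower of all genes: HERPUD1, XBP1 and CEBPG were higher and ERO1A, HYOU1, DNAJB11 and SEL1L lower. All calls made without the block in these 2 comparisons were of ER genes, which make up 25 of the 35 tested members. They fell on 3 genes, too few to set the ER genes apart from the ATF4 arm.

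**Figure D4:**
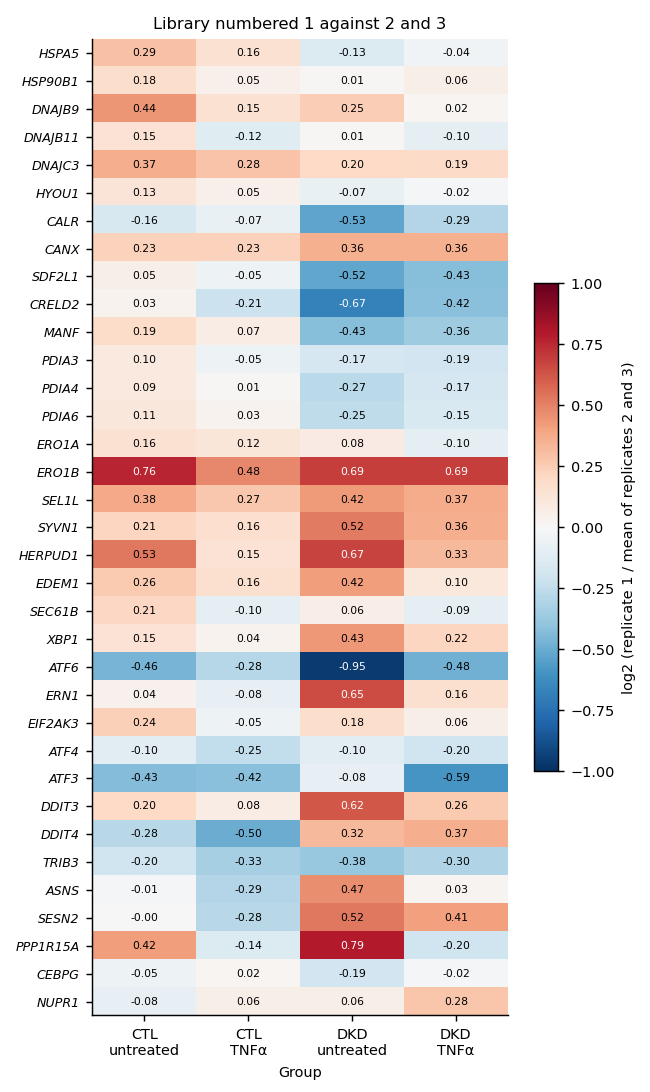
Log2 ratio of the library numbered 1 to the mean of replicates 2 and 3 in each group (columns) for the 35 tested genes (rows); red is higher and blue lower in replicate 1. In untreated knock-down cells ATF6 (-0.95) and CRELD2 (-0.67) are the lowest and PPP1R15A (0.79) the highest.

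The library numbered 1 of untreated knock-down cells differed from its partners in these genes too. In that group 11 of 35 members lay more than 0.5 on the log2 scale from the mean of replicates 2 and 3, against 41.5% of all tested genes. In untreated control cells 2 members did (against 19.6% of all genes), in control cells with TNFα 0 (against 15.8%) and in knock-down cells with TNFα 2 (against 28.6%). In each group the members' share was below that of all genes. All tested genes include many with few counts, and the shares were not compared at equal counts. The lower share therefore cannot be read as a trait of the members. PPP1R15A (0.79), ERO1B (0.69), HERPUD1 (0.67), ERN1 (0.65) and DDIT3 (0.62) were high there. ATF6 (-0.95), CRELD2 (-0.67), CALR (-0.53) and SDF2L1 (-0.52) were low. HYOU1 (-0.07), DNAJB11 (0.01) and ERO1A (0.08), the 3 genes called lower in knock-down cells, lay within 0.1 of their partners. A small spread among libraries helps a gene to be called, so this gives the calls no separate support. The untreated call of HYOU1 was lost without this library (adjusted p = 0.0791, edgeR). From replicates 2 and 3 alone, the averaged comparison of the lines called 11 members, 4 higher and 7 lower. The share of all genes called was not taken in that setting, so this count cannot be read against it. Without DKD untreated replicate 1 the averaged difference between the lines was 0.31 for HERPUD1, 0.22 for XBP1, -0.23 for CALR, -0.20 for ATF6 and 0.34 for DDIT3, each nearer to 0 than with it. DDIT3 stayed called (adjusted p = 0.0427, edgeR) and the other four genes stayed uncalled. In these genes that library had lain on the side of the difference. Other members moved away from 0 without it and stayed uncalled, among them CANX (-0.23), SEL1L (-0.22), DNAJC3 (-0.19) and CEBPG (0.19).

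Further genes of the same pathways were counted by list, to be read against 8.49% of all genes called higher and 6.04% lower for the averaged knock-down and 5.02% and 2.2% for averaged TNFα. Of 26 further ER folding genes 1 was called higher in knock-down cells on average (UGGT1, the glycoprotein folding sensor, 0.36, adjusted p = 0.0298) and 1 lower (CRELD1, -0.40, adjusted p = 0.00829). Of 22 further ERAD genes 1 was called higher (UBXN4, 0.47) and 2 lower (ERLIN1, -0.64, and ERLIN2, -0.22). Of 24 genes of translocation and signal peptide removal, SEC11C, a signal peptidase subunit, was called higher in knock-down cells (0.36, adjusted p = 0.00332), and SEC11C (-0.26) and SEC63 (-0.19) were called lower with TNFα. Of 23 further signalling genes, ATF6B, the paralogue of ATF6, was lower in knock-down cells in both conditions (-0.49 untreated, adjusted p = 0.00385, and -0.37 with TNFα, adjusted p = 0.0164). TRAF2, an adaptor that binds IRE1 and also the TNF receptor complex, rose with TNFα on average (0.60, adjusted p = 0.00576). None of these lists had more than 3 called genes in any comparison without the block. With it, the averaged knock-down called 2 folding genes higher and 6 lower, and 1 ERAD gene higher and 5 lower. It called 3 translocation genes higher and 1 lower, and 4 signalling genes lower, against 15.8% higher and 15.4% lower of all genes. For averaged TNFα the block called 6 signalling genes higher and 1 lower, against 12.4% higher and 8.82% lower of all genes, and at most 3 genes in the other lists.

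Of 37 further genes known as ATF4 targets, 6 were called higher and 3 lower in knock-down cells on average, against 8.49% of all genes called higher and 6.04% lower, with a median of 0.07 against 0.01 over all genes. The serine synthesis gene PHGDH (0.46, adjusted p = 9.67e-04), the mitochondrial folate enzyme gene ALDH1L2 (0.60) and the lipoprotein receptor gene VLDLR (1.35) rose, and the cationic amino acid transporter gene SLC7A1 fell (-0.96, adjusted p = 2.18e-05). With TNFα, SQSTM1, which encodes the autophagy receptor p62, rose by 1.53 and the stress cytokine gene GDF15 by 0.84 averaged, while PHGDH (-0.47) and PSAT1 (-0.34), also in serine synthesis, fell. SQSTM1 and GDF15 are known to respond to several other pathways as well. With the block, 12 of the 37 were called higher and 8 lower for the averaged knock-down, against 15.8% higher and 15.4% lower of all genes. For averaged TNFα the block called 4 higher and 5 lower, against 12.4% higher and 8.82% lower of all genes. None of 12 aminoacyl-tRNA synthetase genes, a group that ATF4 is known to raise together, was called in any comparison without the block, and at most 2 had an unadjusted p under 0.05 (edgeR). Their medians were -0.02 for the knock-down and -0.01 for TNFα. With the block, 1 of these 12 was called higher and 2 lower for the averaged knock-down, and 1 lower for averaged TNFα.

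The heat-shock chaperones outside the ER showed no general change either. Of 13 such genes HSPD1 (0.49, adjusted p = 3.21e-04) and HSPE1 (0.49, adjusted p = 3.12e-04), the mitochondrial chaperonin and its partner, rose in knock-down cells, and HSPE1 fell with TNFα (-0.36). The other 11 were not called in these comparisons without the block. These counts stand against 8.49% of all genes called higher and 6.04% lower for the knock-down and 5.02% and 2.2% for TNFα. With the block, 2 of the 13 were called higher and 3 lower for the averaged knock-down, against 15.8% higher and 15.4% lower of all genes. For averaged TNFα the block called 3 lower, against 8.82% of all genes.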

How the data were processed

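RNA-seq of 12 HepG2 libraries was analysed. Per the submitters' processing notes, the authors used CASAVA 1.7, Salmon 0.14.0 and DESeq2 with GRCh38/hg38; how transcripts were summed to genes, with which annotation and strand, is not given in the sources used here. The authors deposited estimated counts (expected counts) per gene symbol, whole numbers as deposited, which were used here; their normalised table was not used. Such counts split reads among overlapping transcripts and near copies by a model. Columns were matched to samples by title. Computed here: TMM factors, filterByExpr (minimum count 10, minimum total 15), and edgeR 4.0.16 quasi-likelihood tests in R 4.3.3 with 1 mean per group over 12 libraries (8 residual degrees of freedom). P-values were Benjamini-Hochberg adjusted over 16118 genes and called under 0.05. Intervals are at 95%. The scripts were tested on simulated data. Values in every library are given for called members and for HSPA5, ATF4, DDIT3, XBP1, ATF3 and PPP1R15A, and for DDIT4, CALR and HERPUD1, which were called with the block and not in the standard analysis; other list genes are named up to 4 per list and comparison, by smallest p.

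The replicate numbers come from the titles. Same-numbered libraries correlated in their deviations from group means (18 pairs, r = 0.193 to 0.695), and 12 of 12 libraries correlated best with their own number, so the numbers were taken as pairing. Alternatives were a replicate block, RLE and upper-quartile factors, DESeq2 1.42.0, no filter, the 2 groups alone, each library left out, no knock-down library numbered 1, and replicates 2 and 3 only. The members and lists were chosen with earlier results of these data known. Positions are from GENCODE 29 and promoters from RefSeq.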

Additional observations from a re-analysis of the deposited data

How the results depend on the processing

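The 45 values of single members that were called in the standard analysis or with the block were followed under each alternative, the block included. Of these 877 comparisons, 757 kept their direction and their side of the threshold, 37 lost the call, 83 gained it and none reversed. The 33 gains under the block follow from how the values were chosen, and members called in neither analysis were not followed. With the replicate block the number of members called became 6 and 1 for TNFα in control and knock-down cells, 8 and 7 for the knock-down without and with TNFα, and 8 and 15 for the averaged TNFα and knock-down effects, and it stayed at 0 for the interaction. The block changed no other call of a member than those named with it in the results. DESeq2 gave 4 and 1 for TNFα in the 2 lines, 5 for TNFα averaged and 8 for the knock-down averaged. Fitting only the 2 groups gave 1 for TNFα in control cells and 1 for the untreated knock-down, and no low-count filter also gave 1 for the latter. RLE and upper-quartile factors each gave 4 for TNFα averaged. Without both knock-down libraries numbered 1 the counts were 1, 1, 1 and 6 for TNFα in CTL, TNFα in DKD, the untreated knock-down and TNFα averaged. From replicates 2 and 3 only they were 2, 2, 5, 7 and 11 for TNFα in CTL and in DKD, the knock-down with TNFα, TNFα averaged and the knock-down averaged. For these changes the cause was not tested. Shares of all genes called were taken only for the standard analysis and the block, so counts in the other settings cannot be read against such a share. With each library left out in turn the counts ran from 0 to 1 for TNFα in each line, 2 to 5 for TNFα averaged, 1 to 2 for the untreated knock-down, 2 to 3 for the knock-down with TNFα and 3 to 7 for the knock-down averaged, and stayed at 0 for the interaction. The highest count for TNFα averaged, 5, came without DKD untreated replicate 1. Depth limits mainly CHAC1 and FGF21, and 3 libraries a group limit the interactions.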
